A study of Mus musculus with 2 samples.

Results

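The genes described here encode the heat shock chaperones of the cytosol and of the mitochondria, together with the transcription factor that controls many of them. They are the HSP70 genes Hspa8, Hspa1a and Hspa1b, the HSP90 genes Hsp90aa1 and Hsp90ab1, the HSP110 gene Hsph1, the HSP40 gene Dnajb1, the mitochondrial chaperonin genes Hspd1 and Hspe1, and Hsf1. The 10 genes were chosen by family and by cell compartment, and every transcript of theirs in the deposited table was taken, which gave 35 transcripts of the 93615 listed. Of these, 21 are annotated as protein-coding and 11 as retained-intron forms. Hsf1 encodes a regulator and not a chaperone, so the list is that of 9 chaperone genes and 1 transcription factor.

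Pro-B cells of mice that had lost Setdb1 by deletion (Setdb1 Δ/Δ) were compared with pro-B cells whose Setdb1 alleles were not deleted (Setdb1 C/C). Pro-B cells are early B cell precursors of the bone marrow, and Setdb1 encodes an enzyme that methylates lysine 9 of histone H3. Cells of both genotypes carried a bcl2 transgene, were sorted from bone marrow and grew for 4 days with interleukin 7 at 5 ng/µl. The animals' sex, age and strain, the promoter of the transgene and the agent and time of the deletion are missing from the labels. There was 1 library per genotype, so the differences given here are between 2 libraries and could not be tested.

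Heat shock proteins bind other proteins that are not folded and use ATP to help them fold. HSP70 takes up short exposed stretches and works with J-domain proteins of the HSP40 family and with exchange factors such as HSP110, and HSP90 acts later on kinases, receptors and other clients. In mitochondria the HSP60 ring (Hspd1) and its HSP10 lid (Hspe1) enclose a client while it folds. When unfolded protein builds up in the cytosol, HSF1 binds heat shock elements, inverted repeats of the letters GAA, in the promoters of these genes, and the inducible forms Hspa1a and Hspa1b respond most. The endoplasmic reticulum has its own paralogues under a separate control, the unfolded protein response.

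Values are RPKM, read numbers divided by transcript length in kilobases and by library size in M (mega) reads, so levels can be compared between genes per length. The values imply 193.3 M reads for Δ/Δ and 170.7 M reads for C/C. For each gene the transcript of highest mean RPKM stands for it, and a gene counts as measured where either library reached 1 RPKM. The log2 ratio is log2((Δ/Δ + 0.5) / (C/C + 0.5)), and the rule of size used in place of a test calls a gene higher in Δ/Δ at 1 or above and lower at -1 or below. Plain ratios are Δ/Δ RPKM over C/C RPKM without the added 0.5, and their exact 95% intervals cover counting error only. Setdb1 itself measured 12.6 RPKM in Δ/Δ and 17.0 RPKM in C/C, a value over the whole transcript that does not measure how complete the deletion was. Xist, the RNA of the inactive X chromosome of female cells, measured 23.7 RPKM in Δ/Δ and 0.0940 RPKM in C/C (a gene chosen after its values were seen), so genotype and sex cannot be told apart.

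None of the heat shock chaperone genes passed the rule of size in either direction. Of the 10 genes 8 were measured, and 0 of these were called, where 12.9% of the 12556 measured genes of the series were called in either direction. At that share a list of 8 genes would hold few calls or none. The log2 ratio was above 0 for 6 of the 8 and below 0 for 2, with a median of 0.28, beside a median of -0.09 and a share above 0 of 42.2% over all measured genes. Over the 4 members that share no read-length sequence with another annotated gene (Hsp90ab1, Hsph1, Dnajb1 and Hsf1, a choice made after the data were seen) the median was 0.0019. Their log2 ratios were 0.27, 0.65, -0.56 and -0.27 in that order, so this median lies between unlike values. In these bulk samples fewer cells of a type and less RNA per cell cannot be told apart. Hspd1 came nearest to the rule, and it passed when its longest coding transcript stood for it. The members spanned almost the whole range of expression, and their order by level was the same in both libraries.

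**Figure D1:**
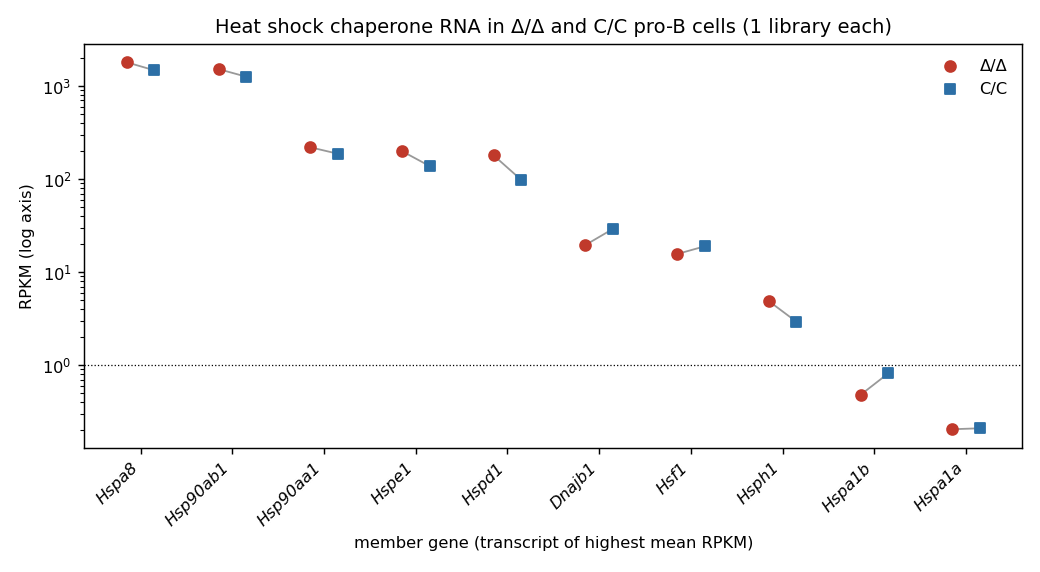
RPKM (log axis) of the 10 genes in the Δ/Δ library (circles, left of each pair) and the C/C library (squares, right), 1 library each, in order of level. Hspa8 and Hsp90ab1 are the 2 highest in both, and Hspa1b and Hspa1a lie under the dotted line at 1 RPKM in both.

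Markers of other cell types differed between the same libraries, where 6.28% of all measured genes were higher and 6.66% lower by the rule. Of 10 measured myeloid markers of 14, 8 were higher and 0 lower in Δ/Δ, with a sum of 268 RPKM in Δ/Δ and 36.4 RPKM in C/C, and Mpo and Elane were listed at 0 in C/C. Of 7 measured erythroid and platelet markers of 11, 6 were higher and 0 lower, with a sum of 76.7 RPKM in Δ/Δ and 8.82 RPKM in C/C and none at 0. Of 3 measured T lineage markers of 8, 1 was higher (Cd4, 2.62 RPKM in Δ/Δ and 0.150 RPKM in C/C) and 0 lower. Their sum was 14.1 RPKM in Δ/Δ and 20.6 RPKM in C/C, mostly from Lck (10.5 RPKM in Δ/Δ, 18.4 RPKM in C/C). Lck and Zap70 had the smaller value in Δ/Δ. The markers under 1 RPKM (Cd3d, Cd3e, Cd3g, Cd8a and Trac) all had the larger value in Δ/Δ, and Cd3e was listed at 0 in C/C. Over all 8 the median log2 ratio was 0.32. The filter kept S100a8, Fcer1g, Fcgr3, Csf3r, Pf4, Ppbp, Itga2b and Cd4 only through Δ/Δ, the library where they were high. It kept Zap70 only through C/C. Low genes included, the median log2 ratio was 1.39 for the 14 myeloid and 1.13 for the 11 erythroid and platelet markers. All 14 B lineage markers were measured in both libraries, 5 of them lower and 0 higher, with a sum of 3601 RPKM in Δ/Δ and 5615 RPKM in C/C, and 3 were lower after centring on the median of all measured genes or with a common sum. Immediate early genes, which respond to handling within minutes, had 1 higher and 5 lower of 14 measured, with a median of -0.93. The higher one was Fos (3.43 RPKM in Δ/Δ and 1.19 RPKM in C/C). Egr3 had the lowest ratio (0.0620 RPKM in Δ/Δ and 2.51 RPKM in C/C). The filter kept Egr1, Egr2 and Egr3 only through C/C. With a pseudocount of 0.1 RPKM the list had 10 calls in either direction and a median of -1.08. The part of these differences in the members' values was not tested.

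The constitutive HSP70 of the cytosol, Hspa8 (HSC70, which also uncoats clathrin vesicles), was the most abundant member. Its transcript Hspa8-203, annotated as a processed transcript and not as protein-coding, measured 1798 RPKM in Δ/Δ and 1474 RPKM in C/C. Only 55 measured genes stood above it in Δ/Δ and 76 in C/C. The ratio was 1.22 (interval 1.21 to 1.23) and the log2 ratio 0.29. Over its 9 listed transcripts (GRCm38 chromosome 9, plus strand, coding form Hspa8-201 at 40800984 to 40805200) the log2 ratio ran from -0.26 to 0.59, and it was above 0 for 8 of them. The transcript that ran the other way, Hspa8-209, measured 1305 RPKM in Δ/Δ and 1560 RPKM in C/C. The coding form Hspa8-201 measured 1308 RPKM in Δ/Δ and 1134 RPKM in C/C.

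A copy of Hspa8 differed far more between the libraries than Hspa8 itself. The processed pseudogene Gm15459 (GRCm38 chromosome 5, 5781615 to 5783555, minus strand), an intronless copy of Hspa8 that was found by its sequence and is outside the rule for named genes, measured 4.31 RPKM in Δ/Δ and 212 RPKM in C/C. It was 49.1-fold lower in Δ/Δ, and Gm26825, a long non-coding RNA gene that overlaps it, measured 4.03 RPKM in Δ/Δ and 206 RPKM in C/C. Of its 1841 windows of 101 bases, the length of a read, 1300 (70.6%) occur letter for letter in Hspa8-202, so most such reads could be placed on either locus. Its reads came to 0.281% of those of Hspa8-202 in Δ/Δ and 15.6% in C/C. Hspa8-202 alone measured 1472 RPKM in Δ/Δ and 1301 RPKM in C/C. If all reads of Gm15459 are counted to it, it measured 1477 RPKM in Δ/Δ and 1505 RPKM in C/C, a ratio of 0.981 (interval 0.976 to 0.987), on the other side of 1. Processed pseudogenes as a class were more often lower than higher, with 48 lower and 13 higher of 231 measured, where protein-coding genes had 531 lower and 594 higher of 10750. How far read placement accounts for the difference in Hspa8 was not tested.

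**Figure D2:**
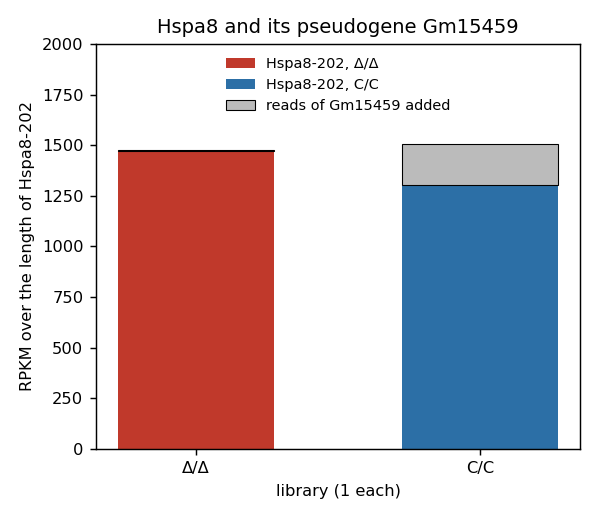
RPKM over the length of Hspa8-202 in the Δ/Δ and C/C libraries, 1 each (coloured bars), with the reads of the pseudogene Gm15459 added on top (grey). The grey part is a thin line in Δ/Δ and a wide band in C/C, and the stacked bars end at 1477 RPKM in Δ/Δ and 1505 RPKM in C/C.

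The inducible HSP70 genes stayed under 1 RPKM in both cultures. Hspa1a (chromosome 17, 34969190 to 34972156, minus strand) measured 0.205 RPKM in Δ/Δ and 0.210 RPKM in C/C, from 118 and 106 reads, with a ratio of 0.976 (interval 0.667 to 1.45). Hspa1b (chromosome 17, 34956436 to 34959238, minus strand) measured 0.480 RPKM in Δ/Δ and 0.815 RPKM in C/C, from 260 and 390 reads, with a ratio of 0.589 (interval 0.468 to 0.739). The interval of Hspa1a spans 1 and that of Hspa1b lies under it, so neither was higher in Δ/Δ beyond counting error. The transcripts of this neighbouring pair are identical at 91.4% of 2729 aligned bases and share 1344 windows of 101 bases, and Hspa1a also shares 564 exonic bases with Gm20481 on the opposite strand. Since the library kit does not mark strand, the split of reads among these loci is uncertain.

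The Hspa1a promoter is shown because these are the genes that HSF1 is known to raise most. RefSeq's promoter table (build GRCm38.p6, 250 bases before to 50 after an annotated start) held 6 of the 10 genes. A search on both strands used the heat shock element in a form of 3 units, which are GAA, TTC and GAA in that order with NN (any 2 bases) between neighbours. It also used forms of 2 units, GAA then TTC or TTC then GAA, with the same spacing, which overlap the longer form. Capitals mark every match, and a match of letters is not evidence of binding. The window of Hspa1a (chr17:34972107-34972406, minus strand) holds 1 match of 2 units, and it differs from that of Hspa1b at 4 of 300 bases.
Hspa1a: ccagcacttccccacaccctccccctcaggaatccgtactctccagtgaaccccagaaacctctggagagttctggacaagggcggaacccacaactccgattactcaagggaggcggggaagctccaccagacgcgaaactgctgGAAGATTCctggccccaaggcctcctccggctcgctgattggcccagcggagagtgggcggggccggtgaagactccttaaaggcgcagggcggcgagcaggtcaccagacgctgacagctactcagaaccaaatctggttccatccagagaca

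Both HSP90 genes of the cytosol were expressed at high level and lay within the rule. Hsp90ab1 encodes the constitutive form HSP90β (chromosome 17, coding transcript Hsp90ab1-201 at 45567775 to 45573271, minus strand). Its transcript Hsp90ab1-206, annotated for nonsense-mediated decay, measured 1519 RPKM in Δ/Δ and 1260 RPKM in C/C, a ratio of 1.21 (interval 1.19 to 1.22). Hsp90ab1-201 measured 1274 RPKM in Δ/Δ and 1036 RPKM in C/C. All 8 transcripts of Hsp90ab1 had a log2 ratio above 0, from 0.19 to 0.58, and none shares a read-length window with another gene of the annotation. Hsp90aa1, the stress-inducible form HSP90α (chromosome 12, coding transcript Hsp90aa1-201 at 110691028 to 110696289, minus strand), measured 220 RPKM in Δ/Δ and 187 RPKM in C/C for its transcript Hsp90aa1-208, a log2 ratio of 0.23.

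The values of the Hsp90aa1 transcripts differed among themselves along the gene. Hsp90aa1-201 and Hsp90aa1-202 had 100828 and 100937 reads in Δ/Δ, so reads over shared exons appear to count for each transcript. A value thus covers the exons of a form and does not separate that form from others over the same bases. Forms that end within exons 1 to 3 of Hsp90aa1-201 had the lowest ratios, with 196 RPKM in Δ/Δ and 182 RPKM in C/C for Hsp90aa1-203 and 168 RPKM in Δ/Δ and 157 RPKM in C/C for Hsp90aa1-207. The full-length coding form Hsp90aa1-201 measured 183 RPKM in Δ/Δ and 103 RPKM in C/C, a log2 ratio of 0.82. Hsp90aa1-204, a retained-intron form over exons 8 and 9, measured 176 RPKM in Δ/Δ and 110 RPKM in C/C. Hsp90aa1-208, which ends in exon 4, lies between them with a ratio of 1.17 (interval 1.15 to 1.20). The share of read-length windows that occur in other annotated loci was 3.36% in Hsp90aa1-203 and 2.89% in Hsp90aa1-207, against 45.3% in Hsp90aa1-208, 47.6% in Hsp90aa1-204 and 52.9% in Hsp90aa1-201. In the other forms it was 47.3% in Hsp90aa1-202 (ratio 1.77), 48.1% in Hsp90aa1-206 (ratio 1.47) and 57.6% in Hsp90aa1-205 (ratio 7.46). The part of shared windows in the ratios was not tested.

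The retained-intron form Hsp90aa1-205 stood apart from all the others in its value, which does not separate its own RNA from that of overlapping forms. It measured 152 RPKM in Δ/Δ and 20.4 RPKM in C/C, a ratio of 7.46 (interval 6.95 to 8.02) and a log2 ratio of 2.87, past the rule. The Δ/Δ value lies close to those of the other forms, and the C/C value lies far under them. Of its 487 bases, 436 are also exonic in the coding form, in exons 5 and 6 of its 11 exons. The log2 ratios of the Hsp90aa1 transcripts spanned 2.77, and of 3926 genes with at least 5 transcripts at 1 RPKM or more, whose median span was 0.31, 99.9% spanned no more. Of the windows of Hsp90aa1-205, 57.6% occur in other annotated loci. The loci were listed for all Hsp90aa1 transcripts together, so which of them match Hsp90aa1-205 was not separated. Among them the processed pseudogene Gm12346 measured 1.04 RPKM in Δ/Δ and 1.21 RPKM in C/C, and Gm5844 measured 0.210 RPKM in Δ/Δ and 0.222 RPKM in C/C. Another locus of this kind, Gm5511, was not analysed here. The part of read placement among these loci in the low C/C value was not tested.

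**Figure D3:**
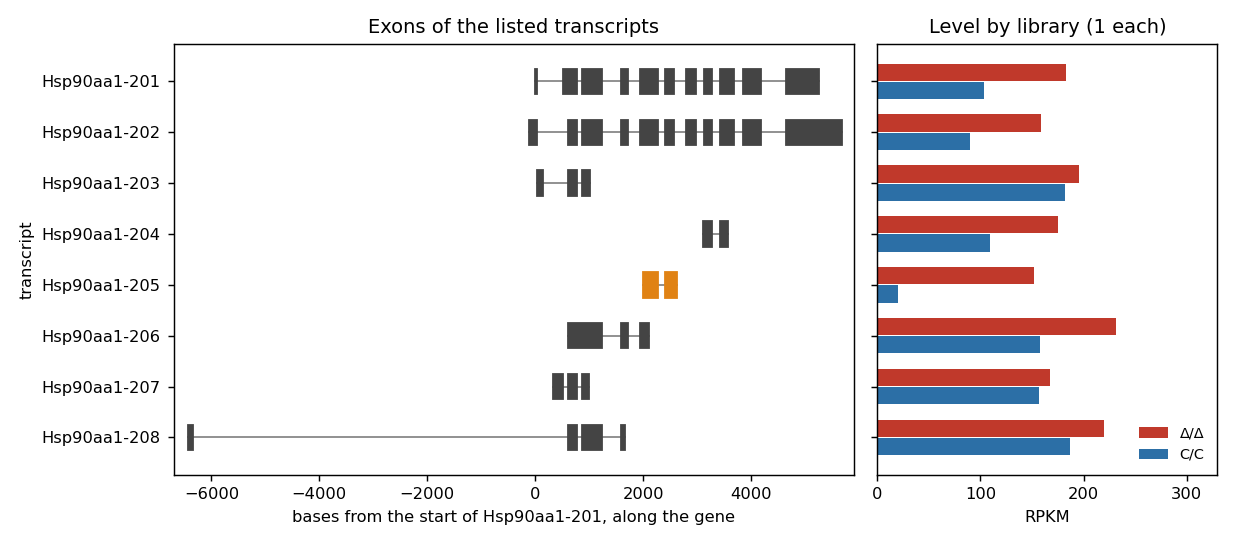
Exons of the 8 Hsp90aa1 transcripts by distance in bases from the start of Hsp90aa1-201 (left), and their RPKM in Δ/Δ (red, upper bar) and C/C (blue, lower bar), 1 library each (right). Hsp90aa1-205, in orange, covers bases 1997 to 2629 from that start and is the form with 20.4 RPKM in C/C.

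The bases that Hsp90aa1-205 has in common with the coding form are given because Hsp90aa1-205 was low in C/C. Levels per base were not available, and Hsp90aa1-201, which holds the same bases, measured 103 RPKM in C/C. The bases were read from the GENCODE M21 transcripts, build GRCm38, and are written 5′ to 3′ on the minus strand. The stretch of exon 5 (chr12:110694023-110694292) is 74.1% A or G, against 56.6% in the whole of Hsp90aa1-201, and that of exon 6 (chr12:110693711-110693876) is 49.4% A or G.
Exon 5: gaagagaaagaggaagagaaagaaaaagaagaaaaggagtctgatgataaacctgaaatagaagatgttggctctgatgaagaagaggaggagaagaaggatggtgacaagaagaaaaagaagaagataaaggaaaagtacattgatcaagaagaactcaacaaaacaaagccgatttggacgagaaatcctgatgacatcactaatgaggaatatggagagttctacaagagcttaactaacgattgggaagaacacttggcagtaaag
Exon 6: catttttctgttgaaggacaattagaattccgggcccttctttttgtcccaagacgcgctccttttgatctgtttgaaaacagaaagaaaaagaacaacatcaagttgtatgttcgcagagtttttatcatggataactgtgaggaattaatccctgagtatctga

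The partners of HSP70 lay on opposite sides of a ratio of 1, both within the rule. Hsph1, the HSP110 exchange factor of the cytosol (chromosome 5, 149616845 to 149636209, minus strand), measured 4.88 RPKM in Δ/Δ and 2.93 RPKM in C/C, a ratio of 1.66 (interval 1.53 to 1.81) and a log2 ratio of 0.65. Dnajb1, the J-domain protein that stimulates HSP70 (chromosome 8, 83608193 to 83612653, plus strand), measured 19.6 RPKM in Δ/Δ and 29.2 RPKM in C/C, a ratio of 0.672 (interval 0.649 to 0.695) and a log2 ratio of -0.56. Each has 1 transcript in the table, and neither shares a read-length window with another gene. The counting intervals of both lie clear of 1 on opposite sides.

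The Hsph1 promoter is shown because it carries the element in its form of 3 units, whereas neither of the 2 Dnajb1 windows in the table holds any of the searched forms. The window is chr5:149636266-149636565, minus strand.
Hsph1: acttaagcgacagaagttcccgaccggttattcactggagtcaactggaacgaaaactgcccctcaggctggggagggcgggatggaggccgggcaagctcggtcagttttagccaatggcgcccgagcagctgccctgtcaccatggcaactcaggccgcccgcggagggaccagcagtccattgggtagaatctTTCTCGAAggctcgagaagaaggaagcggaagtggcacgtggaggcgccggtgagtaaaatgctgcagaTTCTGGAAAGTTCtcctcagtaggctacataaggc

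The mitochondrial chaperonin pair had the highest (Hspd1) and the third highest log2 ratio (Hspe1) among the measured members. Hspd1 (HSP60; chromosome 1, minus strand, coding form Hspd1-201 at 55077835 to 55088024) measured 179 RPKM in Δ/Δ and 98.0 RPKM in C/C for Hspd1-203, a ratio of 1.83 (interval 1.77 to 1.90) and a log2 ratio of 0.87. Its longest form, Hspd1-201, measured 173 RPKM in Δ/Δ and 85.7 RPKM in C/C, a ratio of 2.03 (interval 1.99 to 2.06). Its log2 ratio of 1.01 passed the rule by a narrow margin, as did that of Hspd1-202 at 1.04. Of all measured genes taken by their longest coding transcript, 5.32% were higher and 4.44% lower by the rule.

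Hspe1 (HSP10; chromosome 1, 55088132 to 55091307, plus strand) measured 199.5 RPKM in Δ/Δ and 138 RPKM in C/C for its coding form, a ratio of 1.44 (interval 1.41 to 1.48) and a log2 ratio of 0.53. Its retained-intron form, Hspe1-202, measured 95.9 RPKM in Δ/Δ and 82.0 RPKM in C/C. Both genes were thus higher in Δ/Δ beyond counting error, and Hspd1 by more than its neighbour. The 2 genes lie head to head, and the start of Hspd1-201 is 108 bases from that of Hspe1-201. Hspd1-203 shares 99 bases and Hspd1-202 shares 112 bases with Hspe1 on the opposite strand, which an unstranded library cannot divide, whereas Hspd1-201 shares 0. Of the read-length windows, 26.7% in Hspd1-201 and 22.1% in Hspe1-201 occur in other loci. The largest number for Hspd1 is in Hspd1-ps3, a pseudogene, which measured 0.388 RPKM in Δ/Δ and 0.456 RPKM in C/C.

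The region between the 2 genes is shown because it serves as the promoter of both and holds a denser run of heat shock element letters than the other windows of the members. The window of Hspe1 (chr1:55087898-55088197, plus strand) has 4 units in a row over 18 bases, which read as 2 overlapping matches of 3 units. The opposite strand of the same bases lies in one of the 2 Hspd1 windows.
Hspe1: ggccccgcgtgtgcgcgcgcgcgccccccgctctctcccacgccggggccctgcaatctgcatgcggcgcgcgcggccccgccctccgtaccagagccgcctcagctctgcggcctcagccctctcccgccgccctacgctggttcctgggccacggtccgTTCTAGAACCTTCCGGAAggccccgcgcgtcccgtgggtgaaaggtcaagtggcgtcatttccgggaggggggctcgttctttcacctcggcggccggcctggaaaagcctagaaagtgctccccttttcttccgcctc

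Across the 6 genes with a promoter in that table, 3 held the form of 3 units (Hspd1, Hspe1 and Hsph1) and 5 held a form of 2 units. Some genes have 2 windows, and by window 4 of 9 held the form of 3 units and 6 a form of 2 units. Among all 32851 promoter windows 0.603% held the form of 3 units and 15.1% a form of 2 units. The genes with the longer form had log2 ratios of 0.87, 0.53 and 0.65, while Hspa1a and Hspa1b, with the shorter form alone, had -0.01 and -0.42, and Dnajb1, with neither, had -0.56. This is a description of 6 genes, among which Hspd1 and Hspe1 share 1 promoter, and the other members had no window. The search took exact letters only, so elements with an imperfect unit were missed. The part of the element in these ratios was not tested.

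Hsf1, the regulator (chromosome 15, 76477445 to 76500972, plus strand), measured 15.7 RPKM in Δ/Δ and 18.9 RPKM in C/C, a ratio of 0.827 (interval 0.787 to 0.869) and a log2 ratio of -0.27. Its RNA level does not report its activity, which is set mainly by trimer formation and phosphorylation of the protein. Of the other factors, Hsf2 measured 3.34 RPKM in Δ/Δ and 2.39 RPKM in C/C. Hsbp1, which binds HSF1 and restrains it, measured 52.6 RPKM in Δ/Δ and 44.8 RPKM in C/C.

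**Figure D4:**
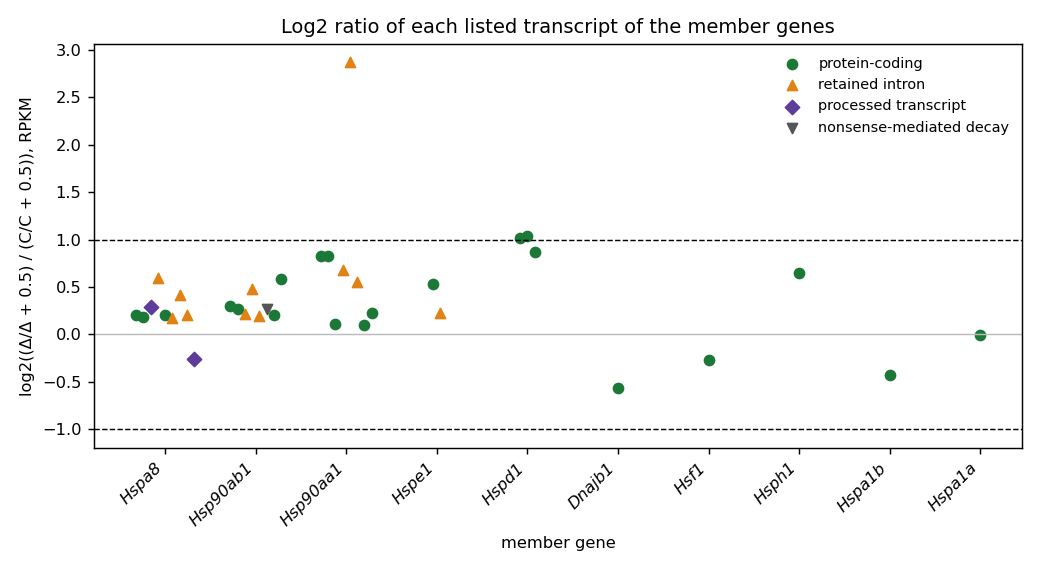
Log2 ratio of each of the 35 listed transcripts, grouped by gene and marked by annotated type, with the rule of size at 1 and -1 (dashed). The 3 transcripts past the rule are Hsp90aa1-205 at 2.87, Hspd1-202 at 1.04 and Hspd1-201 at 1.01.

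At the level of transcripts, 3 of the 35 were higher by the rule and 0 lower, and 33 reached 1 RPKM. Over all transcripts at that level, 4.74% were higher and 4.93% lower. The log2 ratio was above 0 for 30 of the 35 and below 0 for 5. Transcripts of a gene share exons and reads, so these are not independent counts.

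Genes that work with the members were described from lists of textbook partners. Their calls are read beside the 12.9% of all measured genes called in either direction, a share at which short lists hold few calls or none. Of 5 measured further HSP70 genes of the cytosol 0 were higher and 1 lower, with a median log2 ratio of -0.03. The lower one was Hspa2, a form best known from the testis, at 4.14 RPKM in Δ/Δ and 11.2 RPKM in C/C. Hspa4, an HSP110 relative, measured 94.0 RPKM in Δ/Δ and 64.8 RPKM in C/C. Hspa12b measured 3.19 RPKM in Δ/Δ and 1.77 RPKM in C/C, and both stayed within the rule.

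None of 16 measured J-domain genes of the cytosol passed the rule (median -0.01; 1 did with the longest coding transcript), and neither did any of 6 measured exchange factors of HSP70 (median -0.06). With 12.9% of all measured genes called, lists of this length would hold few calls or none. Dnajb4 came nearest among the J-domain genes, at 4.28 RPKM in Δ/Δ and 2.18 RPKM in C/C. Dnaja1, a partner of HSC70, measured 96.6 RPKM in Δ/Δ and 68.2 RPKM in C/C. Bag2 had the lowest ratio of the exchange factors, at 3.22 RPKM in Δ/Δ and 4.92 RPKM in C/C.

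Of 21 measured co-chaperones of HSP90 and HSP70, 3 were higher and 0 lower, where 6.28% of all measured genes were higher and 6.66% lower, and the median was 0.02. The count was 2 with the longest coding transcript of each gene. Ptges3, which encodes the p23, which stabilises the closed form of HSP90, measured 113 RPKM in Δ/Δ and 47.0 RPKM in C/C, a ratio of 2.41 (interval 2.34 to 2.48). Cacybp, a protein that binds the ubiquitin ligase SIAH1 and has a domain of the HSP90 co-chaperone SGT1, measured 38.7 RPKM in Δ/Δ and 17.7 RPKM in C/C. Ppid, cyclophilin 40, measured 46.9 RPKM in Δ/Δ and 22.6 RPKM in C/C. Chordc1 was short of the rule at 35.4 RPKM in Δ/Δ and 18.9 RPKM in C/C.

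The folding machines of the cytosol and of the mitochondria had few calls, where 12.9% of all measured genes were called in either direction. At that share, short lists would hold few calls in any case. None of 14 measured subunits of the TRiC chaperonin and of prefoldin passed the rule (1 did with the longest coding transcript), with a median of 0.31, and the chaperonin subunit Cct6a measured 186 RPKM in Δ/Δ and 117 RPKM in C/C. Of 16 measured mitochondrial chaperones and proteases beyond Hspd1 and Hspe1, 1 was higher and 0 lower (median 0.14). The higher one was Clpx, the unfoldase of the ClpXP protease, at 26.2 RPKM in Δ/Δ and 11.8 RPKM in C/C, and the list had 0 calls with the longest coding transcript or the mean over transcripts. Hspa9, the mitochondrial HSP70, measured 161 RPKM in Δ/Δ and 90.1 RPKM in C/C, a ratio of 1.78 (interval 1.75 to 1.81), which is near that of Hspd1. Proteasome subunits, which remove what cannot be folded, had 0 calls of 31 and a median of 0.32, with 29 of 31 above 0.

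Classical targets of heat shock factors beyond the members had 4 higher and 1 lower of 16 measured, and a median of 0.52. Of all measured genes 6.28% were higher and 6.66% lower. The calls fell on genes of different kinds. Serpinh1, the collagen chaperone HSP47 of the endoplasmic reticulum, measured 8.42 RPKM in Δ/Δ and 0.336 RPKM in C/C. Hspb8, a small heat shock protein, measured 1.45 RPKM in Δ/Δ and 0.149 RPKM in C/C. The others were Cacybp, named above, Hmox1 (1.82 RPKM in Δ/Δ, 0.613 RPKM in C/C) and, in the lower direction, Rgs2 (19.5 RPKM in Δ/Δ, 46.4 RPKM in C/C), a regulator of G protein signalling. Stip1, Ahsa1 and Fkbp4, co-chaperones of HSP90 that belong to the same list, had log2 ratios of -0.03, -0.02 and -0.02. Serpinh1, Hspb8 and Hmox1 reached 1 RPKM in Δ/Δ alone, so the filter kept them only through the library where they were high. Over all 20 genes of the list, low ones included, the median was 0.32. With a filter of 5 RPKM the median was 0.14, with 3 calls in either direction. Among small heat shock proteins 3 of 10 were measured, and Hspb1 (HSP27) measured 0.167 RPKM in Δ/Δ and 0.0440 RPKM in C/C.

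The chaperones of the endoplasmic reticulum formed the contrast. Of 18 measured, 15 were higher and 0 lower by the rule, where 6.28% of all measured genes were higher and 6.66% lower. Their median log2 ratio was 1.55. Of the 8 measured members 0 were called and their median was 0.28. Over the 4 members without shared sequence it was 0.0019, but the endoplasmic reticulum list was not screened for shared sequence. Summed over genes, the endoplasmic reticulum list came to 4356 RPKM in Δ/Δ and 1393 RPKM in C/C, while the 10 members came to 3956 RPKM in Δ/Δ and 3210 RPKM in C/C. The members thus had the smaller sum in Δ/Δ and the larger sum in C/C. These sums are over 10 and 18 genes and depend on the transcript that stands for each gene, so their order is a description only.

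The contrast held from paralogue to paralogue. In the HSP70 family Hspa8 had a log2 ratio of 0.29, against 2.11 for Hspa5 (BiP) of the endoplasmic reticulum and 0.83 for Hspa9 of the mitochondria. In the HSP90 family Hsp90ab1 had 0.27, against 2.12 for Hsp90b1 (GRP94) and 0.10 for the mitochondrial Trap1. Hsph1 had 0.65, against 2.06 for its counterpart Hyou1. In the HSP40 family Dnajb1 had -0.56, against 0.78 for Dnajb11 of the endoplasmic reticulum, which did not pass the rule, and -0.03 for Dnaja3 of the mitochondria. Hspd1 had 0.87, against 0.14 for Tcp1, a subunit of the related TRiC chaperonin of the cytosol. With 1 library per genotype none of these differences between paralogues could be tested.

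**Figure D5:**
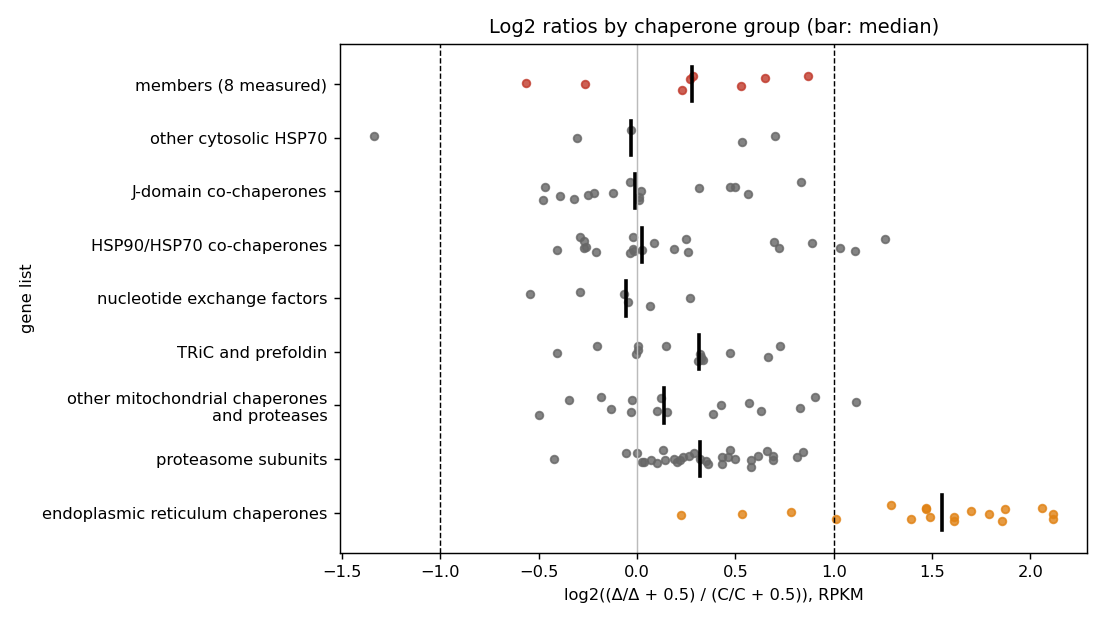
Log2 ratio of each measured gene (points) by chaperone group, with each group's median (black bar) and the rule of size at 1 and -1 (dashed). The members, at the top, lie between -0.56 and 0.87, and 15 of the 18 endoplasmic reticulum chaperones, at the bottom, lie past 1.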

How the data were processed

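Total RNA of 2 mouse pro-B cell cultures, 1 Setdb1 Δ/Δ and 1 Setdb1 C/C, was depleted of ribosomal RNA and sequenced as 101 bp paired-end reads, per the labels' protocols. The authors deposited 1 RPKM value per Ensembl transcript and library, rounded to 3 decimals. TopHat2 2.0.9, bedtools and the builds mm10 and mm9 are named in the submitters' processing notes. Which build, annotation and strand setting this table used, and how reads with several matches were treated, is not given in the sources used here. Of its columns, Del was taken as Δ/Δ and Wt as C/C.

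Transcripts were matched to GENCODE M21 (GRCm38), which succeeded for 89571 of 93615 (95.7%), and these gave 36980 gene symbols. The number of reads per library was taken as the one for which RPKM times transcript length gives whole reads. At 193.3 M (Δ/Δ) and 170.7 M reads (C/C), 95.6% of low values in Δ/Δ and 96.4% in C/C, on transcripts of 100 to 800 bases, lay within 0.1 of a whole read. More such transcripts had 2 reads than 1 (727 against 522 in Δ/Δ, 641 against 588 in C/C), so intervals, exact 95% ones for a ratio of Poisson rates, count 2 reads as 1 fragment. A count of 3 reads on 2 kilobases is 0.00776 RPKM in Δ/Δ and 0.00879 RPKM in C/C. The depth search, the rule of size and the intervals were tested on simulated data.

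The genes named were the members, their paralogues in other compartments, Setdb1 and, per list, at most 4 measured genes whose log2 ratio is farthest from 0. Others were named after their values were seen (Xist, the copies that share windows with a member, and list genes of smaller change). The members and lists were chosen with earlier results of these data known. Windows were compared with all GENCODE M21 transcripts on both strands, and unannotated copies were not searched. No protein sequences were used. Software was Python 3.11.15, numpy 2.4.6, scipy 1.17.1, pandas 2.3.3 and matplotlib 3.10.9.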

Additional observations from a re-analysis of the deposited data

How the results depend on the processing

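No paired analysis was possible because each genotype had 1 library, and for the same reason no replicate could be left out. The number of members called was 0 and stayed 0 under other pseudocounts, centring, a common RPKM sum, the mean over transcripts, the highest coding transcript, a 4-fold rule and both other filters. It was 1 (Hspd1) with the longest coding transcript and 2 (Hspd1 and Hsph1) under a 1.5-fold rule. The members' median log2 ratio of 0.28 was 0.37 after centring on the median of all measured genes, 0.36 with a common sum without the 20 most abundant genes, 0.41 with the longest coding transcript, 0.37 with the mean over transcripts and 0.22 with the highest coding transcript. Over Hsp90ab1, Hsph1, Dnajb1 and Hsf1, the members without a shared window, it was 0.0019, an alternative chosen after the data were seen, as was the sum of Hspa8 with its pseudogene, whose log2 ratio was -0.03. The members kept the sign of their log2 ratio under 2 other pseudocounts, 2 other scalings and 3 other choices of transcript, with the exception of Hspa1a, which ran from -0.02 to 0.08. Hsp90aa1 ran from 0.23 to 0.82 and Hspd1 from 0.87 to 1.01. Calls over all measured genes, 1624 in all, were 1016 with the longest and 1078 with the highest coding transcript, 962 at 5 RPKM, 3684 under a 1.5-fold rule and 454 under a 4-fold rule, which left 3 calls in the chaperone lists. The share of promoters with a heat shock element was 0.603% for 3 units and 15.1% for 2 units.

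Counting error is small for all members but Hspa1a and Hspa1b. Among the limits are the lack of replicates, the placement of reads that match several loci, which was not examined read by read, the difference in Xist, so that genotype and sex cannot be told apart, and the differences in markers of other cell types.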
